A study of Mus musculus with 9 samples.

Results

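The hypoxia-inducible factor (HIF) family and the genes around it were followed in the mouse dorsal lateral geniculate nucleus (dLGN), where retinal input reaches the thalamus, when light returned after a period of darkness. The family was represented by 10 genes of the 20707 in the deposited tables. These are the alpha subunits Hif1a, Epas1 and Hif3a, their partner Arnt, the oxygen-dependent regulators Egln1, Egln2, Egln3, Vhl and Hif1an, and the target Vegfa. They were found by exact gene symbol, and the family was chosen by a measured value: Hif3a was the strongest call after 8 h of light. The difference between 8 h and 0 h is therefore described for all 10 genes without a test. All 10 were in the tables of both deposited comparisons, each in the higher or the lower table of a comparison, and passed the filter on low counts in each comparison.

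The mice were C57BL/6J animals of both sexes, with no transgene or deleted gene named in the labels. All groups were dark-reared between postnatal day 20 and postnatal day 27. The groups differ in the time of light that followed, which was 0 h (no light, the baseline), 1 h or 8 h. None of them was kept dark for the same added hours, and the hour of collection is not given here. Light therefore cannot be told apart from elapsed time or time of day. Each group has 3 libraries of total RNA depleted of ribosomal RNA, and the labels count 3 mice per time as independent samples.

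HIF is a pair of proteins, an alpha subunit bound to ARNT, that switches on genes for glucose uptake, glycolysis and blood vessel growth when oxygen is low. With oxygen present, the EGLN prolyl hydroxylases mark the alpha subunit, VHL then directs it to destruction, and HIF1AN, an asparaginyl hydroxylase, blocks its binding to coactivators. Most of this control acts on the protein, so RNA levels do not report HIF activity. Mouse Hif3a also makes a short splice form, the inhibitory PAS domain protein, which opposes HIF1A. Counts per gene do not separate such forms, and 4 transcripts of Hif3a are annotated in GENCODE vM21.

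The stretches before the starts of Hif3a and Hif1a are shown because the RNA of these related subunits behaved differently in the libraries. Each is the 250 bases before the annotated start, read 5′ to 3′ on the gene's own strand from RefSeq promoters of GRCm38.p6, and each start equals the gene start in the deposited tables. Positions count from 1. The Hif3a stretch is chr7:17062428-17062677 on the minus strand, and the Hif1a stretch is chr12:73907617-73907866 on the plus strand. Capitals mark ACGTG or GCGTG, the core letters of a HIF binding site, on either strand.
Hif3a: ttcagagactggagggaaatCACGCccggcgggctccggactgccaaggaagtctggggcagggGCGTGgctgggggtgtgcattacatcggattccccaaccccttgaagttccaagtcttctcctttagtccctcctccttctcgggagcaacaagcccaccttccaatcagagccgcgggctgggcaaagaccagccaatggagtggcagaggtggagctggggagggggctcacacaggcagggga
Hif1a: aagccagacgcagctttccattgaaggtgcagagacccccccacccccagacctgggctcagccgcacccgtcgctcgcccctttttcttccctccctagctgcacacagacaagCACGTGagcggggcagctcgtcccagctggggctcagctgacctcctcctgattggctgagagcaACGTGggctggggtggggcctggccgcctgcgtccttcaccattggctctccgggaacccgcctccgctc
The Hif3a stretch held the form that starts with G at 2 places, once on each strand, and the form that starts with A nowhere. The Hif1a stretch held the form that starts with A at 3 places, 2 of which overlap in a single palindrome, the E-box CACGTG. Among 32851 RefSeq promoter stretches of the same length, searched on both strands, 16.6% held the form that starts with A and 28.2% held the form that starts with G. The E-box was in 6.02% of them. In the RefSeq table, 9 of the 10 genes matched, with 11 entries. The steroid receptor motif AGAACA was searched too, also on both strands. It was found in 0 of these 11 entries and in 16.1% of all stretches. Such matches of letters describe the sequence and show no binding.

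Total counts ran from 5.73 M to 22.6 M per library. The relay neuron gene Slc17a6 was at 412 to 537 CPM (reads of a gene scaled to library size, with TMM factors over all 9 libraries) as the label of a thalamic tissue implies, though neighbouring thalamic nuclei express it too. The cortical and hippocampal gene Neurod6 stood out in 0 h replicate 2 (18.2 CPM) and 1 h replicate 1 (13.8 CPM), with at most 3.62 CPM elsewhere. Xist, which females express, was at 218 to 520 CPM and the Y-linked Ddx3y at 15.3 to 38.6 CPM in the same 7 of the 9 libraries. A single mouse would show a high level of one of these genes, so both together go against 1 mouse per library. The other libraries were 0 h replicate 3, with 60.0 CPM of Ddx3y and 0.331 CPM of Xist, and 8 h replicate 2, with 858 CPM of Xist and 1 read of Ddx3y. Outside the 7, 1 h had 0 libraries and 0 h and 8 h had 1 library each, so no comparison could be tested without the 7. The p-values here measure the spread between libraries. Of 63 markers of 11 cell type lists tested at 8 h against 0 h, 1 passed, the astrocyte receptor Fgfr3, with a log2 fold change of 0.36 ± 0.06 (SE, edgeR adjusted p = 0.0274). Between 8 h and 1 h, the relay neuron kinase gene Prkcd passed, at 0.34 ± 0.07 (SE, edgeR adjusted p = 0.0409), and at 1 h against 0 h 0 passed. Over all genes, 0.587% passed at 8 h against 0 h, 0.603% between 8 h and 1 h and 0.0132% at 1 h.

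Hif3a was scarce in the dark and several times more abundant after 8 h of light. On GRCm38 it spans 17030993 to 17062427 of chromosome 7, minus strand, with 16 exons and 7019 exonic bases in the deposited tables. Its level was 4.58, 5.26 and 5.16 CPM in the 3 libraries at 0 h, from 27, 98 and 78 reads. At 1 h it was 4.64, 8.88 and 5.41 CPM, and at 8 h it was 22.2, 23.9 and 29.4 CPM, from 489, 445 and 514 reads. Each library at 8 h lay above every library of the other times, and the 1 h group overlapped the 0 h group. Its mean level in CPM was thus 5.0 ± 0.367 in darkness, 6.31 ± 2.26 after 1 h and 25.2 ± 3.79 after 8 h (SD over 3 libraries). The fitted difference of 8 h from 0 h was a log2 fold change of 2.30 ± 0.14 (SE), or 4.92-fold, given without a test. That SE was derived from the p-value of the same contrast, which chose the gene, and is no separate evidence. The authors' deposited table gives a ratio of 4.95 and puts the gene first of 20399 by p-value. That rank is how the gene was chosen and is no separate result. The genes next to it in the order by p of the present fit were Net1 at 1.38 ± 0.10, Per1 at 0.83 ± 0.07 and Trib1 at 1.09 ± 0.09 (log2 fold change ± SE), and in the fit of all 9 libraries Hif3a ranked 3. Over all 15330 genes tested at 8 h, 0.587% were called, 0.528% higher and 0.0587% lower.

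**Figure D1:**
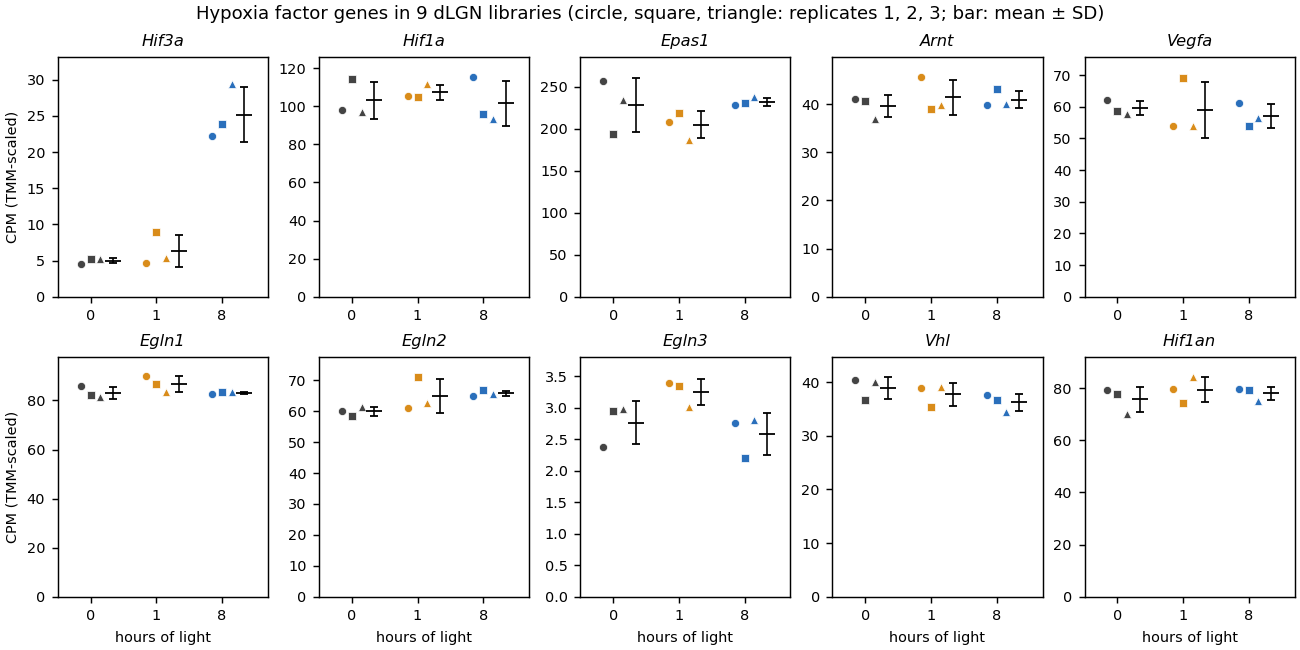
Level of each of the 10 genes in CPM (vertical axis, starting at 0, own scale per gene) against hours of light, with circles, squares and triangles for replicates 1, 2 and 3 and a bar for the mean ± SD of 3 libraries. Hif3a stands at 22.2 to 29.4 CPM at 8 h against 4.58 to 8.88 CPM at the other times, while the highest and lowest library differ by a ratio of at most 1.54 for the other 9 genes.

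Most of the difference at Hif3a was not yet present at 1 h. Against 0 h the log2 fold change at 1 h was 0.34 ± 0.24 (SE; 95% interval -0.18 to 0.86; edgeR adjusted p = 1.00), and it shares the 0 h libraries with the contrast that chose the gene. The value rests on 1 h replicate 2: without it, the log2 fold change was 0.00076. Between 8 h and 1 h the log2 fold change was 1.95 ± 0.19 (SE), described without a test since the 8 h level chose the gene, and it was 2.30 without 1 h replicate 2. In bulk tissue, more RNA per cell and more cells of a type that holds the RNA cannot be told apart. Summed markers of thalamic relay neurons ran from 4591 to 4972 CPM at 8 h against 4159 to 4466 CPM at 0 h, and those of microglia from 157 to 171 CPM against 174 to 194 CPM. These were the 2 of 11 marker sums whose groups did not overlap between 8 h and 0 h, beside 16.1% of all single genes. All 6 markers of each of these lists were detected, and their part in the Hif3a difference was not tested.

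The related alpha subunits Hif1a and Epas1 were far more abundant and stayed within narrow ranges. Hif1a, which encodes the widely expressed subunit that drives glycolytic genes, was at 98.05, 114 and 96.9 CPM at 0 h, 105, 105 and 112 CPM at 1 h and 115, 96.1 and 93.3 CPM at 8 h. The 3 groups overlapped, and the log2 fold change was 0.05 ± 0.08 at 1 h (95% interval -0.12 to 0.22) and -0.08 ± 0.09 from 1 h to 8 h (95% interval -0.27 to 0.11). Epas1, which encodes the subunit known from blood vessels and glia, was at 257, 194 and 234 CPM at 0 h, 208, 219 and 187 CPM at 1 h and 228, 230 and 237 CPM at 8 h. All 3 libraries at 8 h exceeded all 3 at 1 h, with a log2 fold change of 0.18 ± 0.09 (SE; 95% interval -0.02 to 0.38; edgeR adjusted p = 0.628). The 0 h libraries spanned the 8 h group and overlapped the 1 h group. At 8 h against 0 h, with no test, Hif1a stood at -0.03 ± 0.09 and Epas1 at 0.02 ± 0.09 (log2 fold change ± SE). In the GENCODE annotation, an antisense gene shares 5.60% of the exonic bases of Hif1a and another coding gene on its strand shares 2.51%. How the counting treated strand is not stated here, so reads there could not be assigned to a single gene. No annotated gene shared exonic bases with Hif3a or Epas1.

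Arnt, the partner that each alpha subunit needs to bind DNA, was at 36.9 to 41.1 CPM at 0 h, 38.9 to 45.6 CPM at 1 h and 39.7 to 43.1 CPM at 8 h. The groups overlapped, with a log2 fold change of 0.06 ± 0.09 at 1 h and -0.01 ± 0.08 between 8 h and 1 h (SE). Both 95% intervals lay between -0.19 and 0.26, and the sign of each value changed when 1 h replicate 1 was left out.

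None of the prolyl hydroxylase genes was called at 1 h or between 8 h and 1 h. Egln1, the main oxygen sensor of most cells, had the narrowest range of the 10 genes, from 81.3 to 89.9 CPM over the 9 libraries, a ratio of 1.11 between highest and lowest. At 8 h it was at 82.8, 83.3 and 83.4 CPM, just below the 83.4 to 89.9 CPM of the 1 h libraries, with a log2 fold change of -0.06 ± 0.06 between 8 h and 1 h (SE; 95% interval -0.19 to 0.06; edgeR adjusted p = 0.815). Egln2 was at 60.2, 58.4 and 61.3 CPM at 0 h, 60.9, 71.1 and 62.6 CPM at 1 h and 64.9, 66.7 and 65.7 CPM at 8 h. All 3 libraries at 8 h exceeded those at 0 h by a small margin, a log2 fold change of 0.13 ± 0.06 (SE) given without a test. Egln3, which in many cells is itself raised by HIF, was the rarest of the hydroxylases. It was at 2.37, 2.95 and 2.98 CPM at 0 h, 3.40, 3.35 and 3.02 CPM at 1 h and 2.76, 2.20 and 2.804 CPM at 8 h, from 14 to 61 reads per library. The 1 h libraries were above all others, but only narrowly, since 3.02 CPM compares with 2.98 CPM at 0 h. The log2 fold change was 0.20 ± 0.21 at 1 h (SE; 95% interval -0.27 to 0.66; edgeR adjusted p = 1.00) and -0.33 ± 0.19 from 1 h to 8 h (SE; 95% interval -0.75 to 0.09; edgeR adjusted p = 0.685). Of the 9 genes tested there, Egln3 had the widest interval between 8 h and 1 h, and changes within it could not be told from 0.

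Vhl, the substrate receptor of the ubiquitin ligase that removes hydroxylated alpha subunits, was at 36.6 to 40.4 CPM at 0 h, 35.3 to 39.0 CPM at 1 h and 34.4 to 37.6 CPM at 8 h. Hif1an was at 70.2 to 79.2, 74.4 to 84.3 and 75.0 to 79.7 CPM at the same times. The groups overlapped for both genes. Their log2 fold changes at 1 h were -0.05 ± 0.08 for Vhl and 0.07 ± 0.08 for Hif1an (SE), and between 8 h and 1 h they were -0.06 ± 0.08 and -0.03 ± 0.07.

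Vegfa, the growth factor of blood vessels and a classic HIF target, was at 62.1, 58.8 and 57.8 CPM at 0 h, 53.8, 69.1 and 53.8 CPM at 1 h and 61.1, 53.9 and 56.4 CPM at 8 h. The groups overlapped, and 1 h replicate 2 held the highest value, as it did among the 1 h libraries for Hif3a and Egln2. The log2 fold change was -0.01 ± 0.10 at 1 h (SE; 95% interval -0.25 to 0.22) and -0.05 ± 0.10 between 8 h and 1 h (SE; 95% interval -0.26 to 0.16). The latter was 0.08 without 1 h replicate 2.

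In all, 0 of the 10 genes were called at 1 h against 0 h and 0 of the 9 tested were called between 8 h and 1 h (edgeR, adjusted p under 0.05). Over all genes, 0.0132% were called at 1 h and 0.603% between 8 h and 1 h, of which 0.507% were higher and 0.0962% lower. None of the 19 unadjusted p-values was under 0.05, and DESeq2 also called 0 in both comparisons. Groups that did not overlap were seen for 1 of the 9 genes other than Hif3a at 1 h (Egln3), 1 at 8 h against 0 h (Egln2) and 3 at 8 h against 1 h (Epas1, Egln1 and Egln3). Over all genes, the groups did not overlap for 8.72%, 16.1% and 15.3% in these comparisons. The single genes of the first pair of comparisons are near that background. The 3 of 9 genes of the last are a larger share, but 9 genes are too few to tell it from the background. The gap can be small, as for Egln1, with at most 83.36 CPM at 8 h and at least 83.41 CPM at 1 h. The 9 other genes spanned log2 fold changes of -0.16 to 0.20 at 1 h, -0.13 to 0.13 at 8 h against 0 h and -0.33 to 0.18 at 8 h against 1 h. The median over the 10 genes was 0.06, 0.01 and -0.04, beside 0.0028, -0.0047 and -0.0063 over all genes tested.

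**Figure D2:**
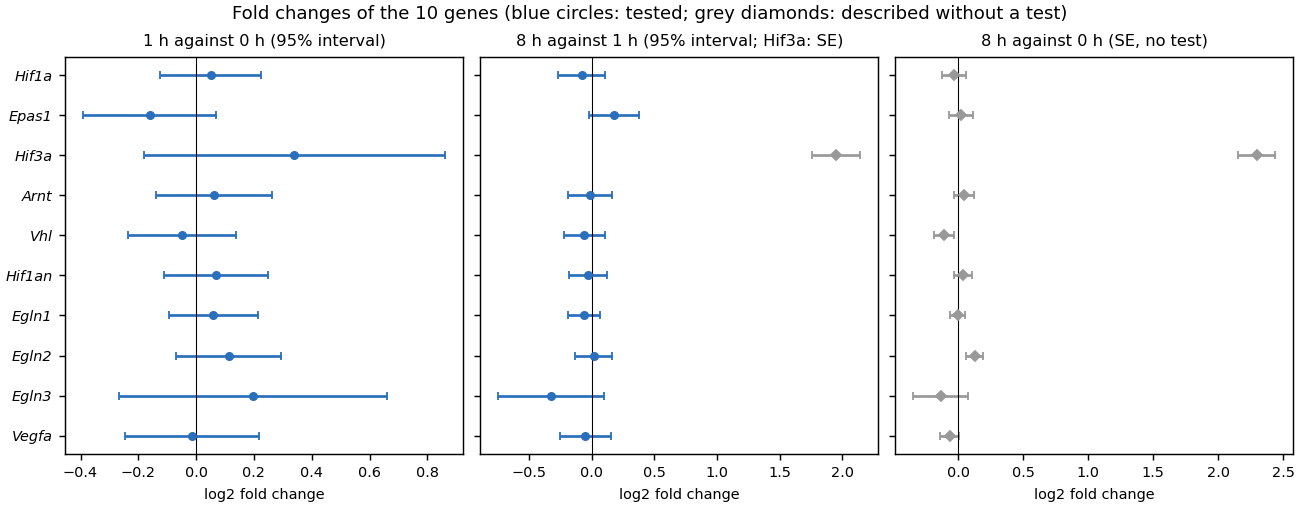
Log2 fold change (horizontal axis, own scale per panel) of the 10 genes at 1 h against 0 h, 8 h against 1 h and 8 h against 0 h, with 95% intervals for tested values (blue circles) and standard errors for values described without a test (grey diamonds). Every tested interval spans 0, and Hif3a stands apart at 1.95 and 2.30 in the comparisons with 8 h.

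Divided by exonic length, which allows levels of different genes to be compared, Epas1 led at 0 h with 42.7 ± 5.96 CPM per kb (SD, n = 3). Egln2 followed with 25.4 ± 0.634, Egln1 with 23.1 ± 0.671 and Hif1a with 21.6 ± 2.05 CPM per kb, of which Egln1 and Hif1a did not differ beyond their spread. Vhl and Vegfa were both at 14.3 CPM per kb and Hif1an was at 12.2 CPM per kb, before Arnt at 8.94 ± 0.513 CPM per kb. Egln3 at 1.03 ± 0.127 and Hif3a at 0.712 ± 0.0523 CPM per kb stood far below the rest. At 1 h Hif3a, at 0.899 ± 0.322 CPM per kb, did not differ from Egln3 at 1.22 ± 0.0772 beyond their spread. At 8 h Hif3a reached 3.58 ± 0.540 CPM per kb, above Egln3 at 0.968 ± 0.126 and still below Arnt at 9.26 ± 0.416. The authors' deposited density put the 10 genes in the same order at 0 h.

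Among the 3 alpha subunits, Hif3a made up 0.942%, 1.23% and 1.13% of their summed level per length at 0 h, and 1.07%, 1.97% and 1.31% at 1 h. At 8 h it made up 4.51%, 5.11% and 6.15%, a mean of 5.26% ± 0.830 (SD, n = 3) against 1.10% ± 0.146 at 0 h. Epas1 remained the larger share throughout, with means of 65.4% ± 5.27, 61.9% ± 2.50 and 63.6% ± 2.27 at 0, 1 and 8 h (SD, n = 3 each). Hif3a was the least abundant of the 3 subunits per length at each time.

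**Figure D3:**
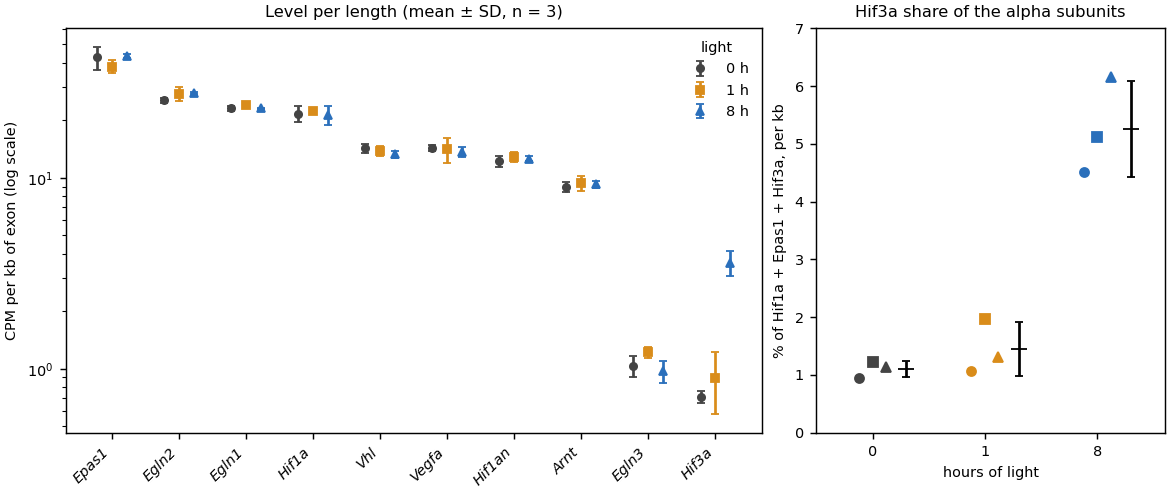
Left, mean level per length in CPM per kb of exon (log axis) of the 10 genes at 0, 1 and 8 h, with SD over 3 libraries. Right, Hif3a as a percent of the summed level per length of Hif1a, Epas1 and Hif3a in each library, with mean ± SD; it lies between 0.942% and 1.97% at 0 h and 1 h and between 4.51% and 6.15% at 8 h.

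Of the genes known as HIF targets, 1 passed the test, in both comparisons with 8 h. Of 44 listed, 42 were in the tables. At 1 h, edgeR and DESeq2 called 0 of 41 tested, with 1 unadjusted edgeR p under 0.05, and edgeR called 0.0132% over all genes. At 8 h against 0 h 1 rose, 0 fell and 40 did not pass, and at 8 h against 1 h 1 rose, 0 fell and 41 did not pass. Over all genes, 0.528% and 0.507% were called higher in these comparisons. In the list, 7 of 41 and 6 of 42 unadjusted edgeR p-values were under 0.05, with higher and lower genes among them in both comparisons. At 8 h against 0 h, Pdk1 (-0.33 ± 0.08), Lox (-1.19 ± 0.34) and Pfkfb4 (-0.39 ± 0.14) were lower and not called. Beside the called gene, Pfkp (0.20 ± 0.06), Ddit4 (0.30 ± 0.12) and Adm (0.79 ± 0.34) were higher and not called (log2 fold change ± SE). The share of such p-values over all genes is not given here, nor for the lists that follow. DESeq2 called 1 gene at 8 h against 0 h and 2 between 8 h and 1 h, the second being Ddit4, a stress-induced inhibitor of mTOR signalling, at a log2 fold change of 0.48 ± 0.12 (SE, DESeq2 adjusted p = 0.00816, edgeR adjusted p = 0.135). The gene that rose in both was Slc2a1, which encodes the glucose transporter of the blood-brain barrier. It was at 79.4, 76.6 and 77.2 CPM at 0 h, 85.4, 93.0 and 71.8 CPM at 1 h and 123, 137 and 106 CPM at 8 h. All libraries at 8 h were above all others, with a log2 fold change of 0.64 ± 0.09 against 0 h (SE, edgeR adjusted p = 0.00927) and 0.54 ± 0.10 against 1 h (SE, edgeR adjusted p = 0.0351). The call against 0 h held in all 14 alternatives, and that against 1 h was lost in 8 of 17, with adjusted p up to 0.170. Among these were the fits without 0 h replicate 1 or 3, 1 h replicate 1 or 3, or 8 h replicate 1 or 2. The medians of the list were -0.04 at 1 h, 0.02 at 8 h and 0.03 between 8 h and 1 h. At 1 h Slc16a3, which encodes a lactate exporter, was at -0.27 ± 0.26 (log2 fold change ± SE), not called. Summed endothelial markers overlapped between the groups, at 131 to 141 CPM at 0 h and 124 to 140 CPM at 8 h. The endothelial gene Cldn5 was lower at 8 h without overlap, at 19.8 to 25.1 CPM against 26.99 to 35.3 CPM at 0 h. Tie1, another endothelial gene, overlapped, at 9.79 to 12.29 CPM at 0 h and 10.58 to 12.05 CPM at 8 h. Over all genes, the groups did not overlap for 16.1% in this comparison. The part of endothelial content in the Slc2a1 difference was not tested.

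Among 25 partners and regulators of HIF, 1 rose at 8 h against 0 h, 0 fell and 24 did not pass, beside 0.528% called higher over all genes. Unadjusted edgeR p-values under 0.05 numbered 3 of 25 in that comparison. It was Cited2, which encodes a protein that competes with HIF1A for the coactivators p300 and CBP. Cited2 was at 37.2, 39.9 and 47.2 CPM at 0 h, 43.9, 55.1 and 53.6 CPM at 1 h and 61.3, 60.9 and 67.9 CPM at 8 h. Every library at 8 h was above those at 0 h and 1 h, and the log2 fold change against 0 h was 0.59 ± 0.09 (SE, edgeR adjusted p = 0.0232). The call was lost, with adjusted p between 0.0502 and 0.0945, when any 1 of 0 h replicates 1 and 2 or of the 8 h libraries was left out, and the log2 fold change stayed at 0.54 to 0.70. At 1 h and between 8 h and 1 h, edgeR and DESeq2 called 0 of the 25, beside 0.0132% and 0.603% called by edgeR over all genes. Unadjusted edgeR p-values under 0.05 numbered 4 and 5 in these comparisons. The largest values there were those of Cited4, a relative of Cited2, at 0.65 ± 0.25 at 1 h and -0.76 ± 0.26 between 8 h and 1 h, of Cited1 at -0.47 ± 0.24 at 1 h, and of the ubiquitin ligase gene Siah1b at -0.70 ± 0.29 between 8 h and 1 h (log2 fold change ± SE). The medians of the list were 0.04, -0.02 and -0.0034 in the 3 comparisons.

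In the VEGF and angiopoietin family, edgeR and DESeq2 called 0 of 13 tested genes in each of the 3 comparisons. Over all genes, edgeR called 0.0132% at 1 h, 0.587% at 8 h and 0.603% between 8 h and 1 h. Unadjusted edgeR p-values under 0.05 in the list numbered 0, 3 and 0 in these comparisons. At 8 h the largest values were those of Flt4, a receptor of lymphatic and vessel growth, at 0.66 ± 0.20, and Tek, the angiopoietin receptor, at -0.45 ± 0.16 (log2 fold change ± SE). At 1 h they were Flt4 at 0.46 ± 0.29 and the ligand gene Angpt2 at -0.38 ± 0.23, and between 8 h and 1 h they were the receptor genes Nrp1 at -0.39 ± 0.20 and Kdr at -0.34 ± 0.18. The medians were 0.03, -0.03 and -0.06.

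Relatives of HIF with the same bHLH-PAS fold gave 1 call among 10 tested genes, Npas4, lower at 8 h than at 1 h, beside 0.0962% called lower over all genes. Npas4 is a transcription factor induced by neuronal activity. It was at 10.01, 7.94 and 12.2 CPM at 0 h, 44.96, 42.5 and 19.3 CPM at 1 h and 13.8, 16.9 and 12.02 CPM at 8 h. All 1 h libraries were above all others. The fall from 1 h to 8 h was a log2 fold change of -1.31 ± 0.26 (SE, edgeR adjusted p = 0.0491), a call that 10 of 17 alternatives lost. It was lost when any single library other than 0 h replicate 2 and 1 h replicate 3 was left out, with adjusted p up to 0.197. At 8 h against 0 h Npas4 was at 0.50 ± 0.18 (log2 fold change ± SE), not called. At 1 h against 0 h, the log2 fold change of 1.81 ± 0.30 (SE) did not pass in edgeR (adjusted p = 0.224) and passed in DESeq2 (adjusted p = 0.0192). It passed in edgeR when 1 h replicate 3, the lowest at that time, was left out (adjusted p = 0.00133). Ahrr, which encodes a repressor of the aryl hydrocarbon receptor, was at -0.67 ± 0.32 at 1 h and -0.40 ± 0.32 at 8 h (log2 fold change ± SE), not called. The medians were 0.05, -0.02 and -0.01.

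**Figure D4:**
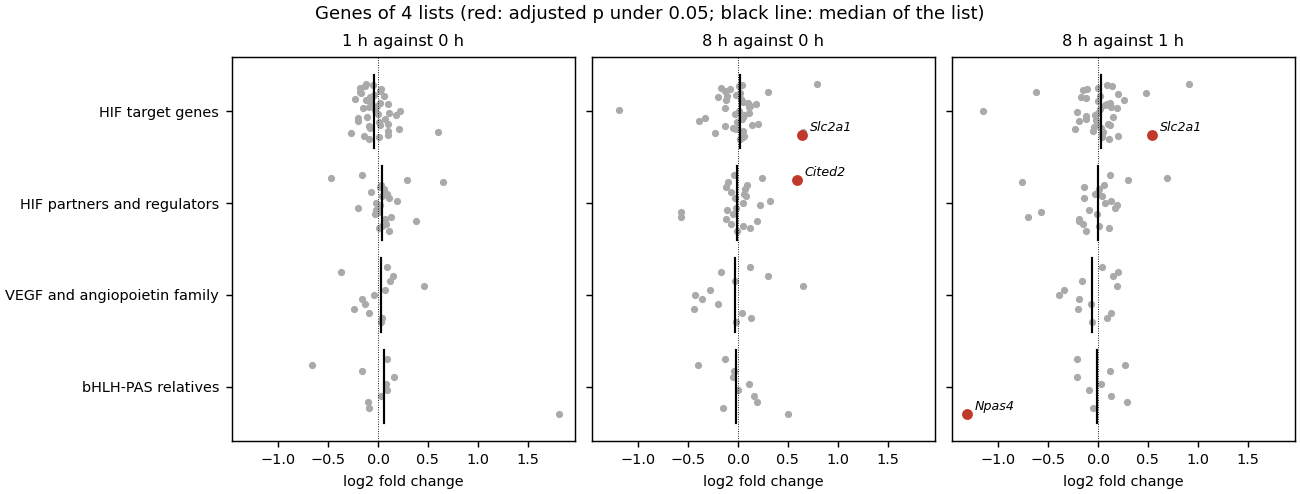
Log2 fold change (horizontal axis) of each tested gene of 4 lists in 3 comparisons, with called genes in red and named, other genes in grey and the median of the list as a black line. Slc2a1, Cited2 and Npas4 are the called genes, and the medians lie between -0.06 and 0.05.

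The 5 genes whose pattern was most like that of Hif3a were Adipor2, B4galnt4, Herpud1, Ttyh3 and Map3k6, with Pearson correlations of log2 CPM of 0.988, 0.980, 0.979, 0.977 and 0.976 over the 9 libraries, among 15585 genes. The libraries share their light groups, so these values mostly restate the difference of the 8 h group and are a description. Adipor2, a receptor of adiponectin, averaged 84.5 ± 3.71 CPM in darkness, 89.4 ± 9.05 CPM after 1 h and 124 ± 2.05 CPM after 8 h (SD over 3 libraries, as for the next genes). Map3k6, a stress kinase of the MAP kinase pathway, was the one with the largest ratio, at 1.35 CPM ± 0.0958, 1.69 CPM ± 0.490 and 4.96 CPM ± 0.398. Herpud1, a gene of the unfolded protein response, went from 49.5 CPM ± 0.107 to 53.1 CPM ± 3.21 and 64.1 CPM ± 0.339. B4galnt4 and Ttyh3 stood at 98.7 CPM ± 4.39 and 394 CPM ± 6.72 at 0 h and at 130 CPM ± 3.91 and 525 CPM ± 25.0 at 8 h. In each of the 5 genes, 1 h replicate 2 was the highest of the 1 h libraries, as for Hif3a, a likeness that the correlation itself selects. With Spearman correlation, 0 of the 5 stayed among the first 5. Among the other HIF genes the correlation with Hif3a ran from -0.68 for Vhl to 0.63 for Egln2, over the same 9 libraries.

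**Figure D5:**
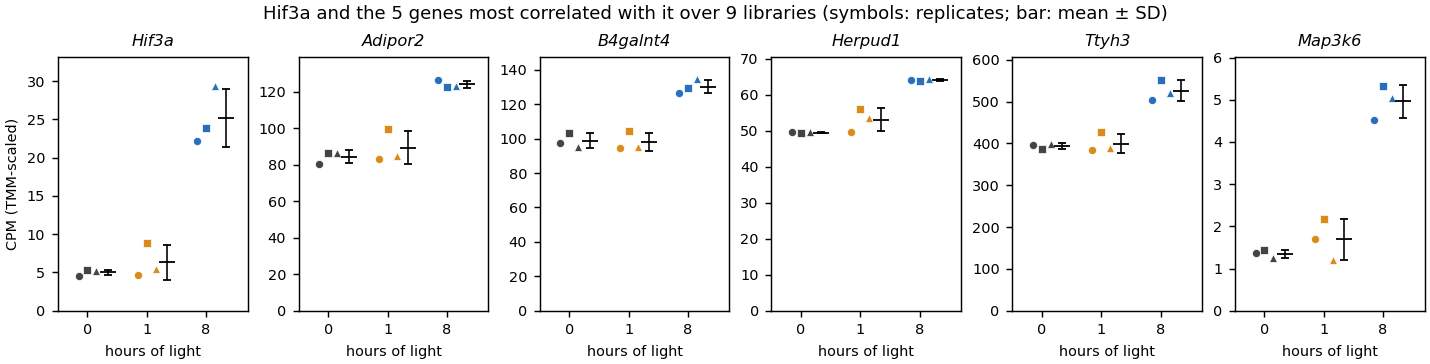
Level in CPM (vertical axis, starting at 0, own scale per gene) of Hif3a and the 5 genes most correlated with it, against hours of light, with symbols for replicates 1, 2 and 3 and a bar for the mean ± SD. In all 6 genes the 8 h libraries lie above those at 0 h and 1 h.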

How the data were processed

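The deposited data are 4 tables of genes higher or lower at 1 h or 8 h than at 0 h. The authors' values used here are raw counts per gene and library, deposited as whole numbers. The deposited density is a signal the authors made as count over exonic length and a library constant. The ratio of light over 0 h, the CPM averaged over libraries, the p-value and the FDR in the deposited tables were made by the authors and are quoted only as theirs. The submitters' processing notes name BWA, edgeR 3.14.0 and GRCm38 (mm10), with no step for each. Which program, annotation and strand rule made the counts is not stated here. Genes with fewer than 4 reads over the 6 libraries of a comparison were not analysed here.

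Counts were fitted with the quasi-likelihood test of edgeR 4.0.16 in R 4.3.3. TMM scaling, the filterByExpr filter, package defaults and two-sided p-values with Benjamini-Hochberg adjustment at 0.05 were used. The fits held 15164 genes (1 h against 0 h), 15330 (8 h against 0 h) and 15586 (8 h against 1 h, all 9 libraries). Standard errors and 95% intervals of log2 fold changes were derived from each p-value and its degrees of freedom, and for Egln3 at 1 h edgeR raised that p to a Poisson bound. The fit was tested on simulated data. The chi-square per gene between replicates was 4.92 to 22.6, above counting noise. The labels name separate mice, while Xist and Ddx3y together in 7 libraries go against 1 mouse per library. A floor of 3 reads, which covers counting error only, lay between 0.133 and 0.524 CPM.

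The members, gene lists and tests were chosen with earlier results of these data known. In each list, genes called in a comparison were named, at most 6, otherwise the 2 with the largest fold changes. The 5 genes most correlated with Hif3a were named too. One gene that this rule names is not reported here. Net1, Per1, Trib1, Fgfr3, Prkcd, Slc17a6, Neurod6, Ddit4, Cldn5, Tie1, Xist and Ddx3y were named outside that rule, after their values were seen. So were Pdk1, Lox, Pfkfb4, Pfkp and Adm. The legacy option of edgeR was first listed with the wrong default, and the choice of the true default was made after fits of both kinds had been read. Alternatives were RLE and upper quartile scaling, no filter, DESeq2 1.42.0, that option, a replicate term, another set of libraries in the fit, and libraries left out.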

Additional observations from a re-analysis of the deposited data

How the results depend on the processing

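Leaving out single libraries, other scalings, no filter, DESeq2, the other legacy value, the replicate term and another set of libraries changed no call of a HIF gene: 0 of 10 were called at 1 h and 0 of 9 between 8 h and 1 h under every one. The log2 fold change of Hif3a stayed at 2.17 to 2.39 at 8 h against 0 h. Counts over all genes moved more. They were 2, 90 and 94 at 1 h, 8 h and 8 h against 1 h, and 14, 270 and 200 with DESeq2. With legacy = FALSE, an alternative added after seeing the data, they were 1, 92 and 104. Without single libraries they ran from 0 to 9, 33 to 84 and 20 to 127. Without 0 h replicate 2 and 1 h replicate 1, which held the most Neurod6, they were 0, 84 and 28. The next highest, 8 h replicate 1, was kept in the fits with 8 h.

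Whether the same replicate number marked paired mice could not be settled. The correlations of same-numbered deviations from the group means ran from -0.209 to 0.187, and not every pair was over 0.1. Those of other pairs ran from -0.228 to 0.271. With 3 libraries per group, such correlations cannot exclude pairing. With the replicate block the counts were 0, 158 and 75, and no HIF gene was called.

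Signs changed only for values near 0, and the cause was not tested. At 1 h without single libraries, Arnt ran from -0.011 to 0.11 and Vegfa from -0.15 to 0.053. Vegfa was 0.029 without 0 h replicate 2 and 1 h replicate 1. Between 8 h and 1 h, Arnt ran from -0.058 to 0.058, Hif1an from -0.078 to 0.013, Egln2 from -0.027 to 0.085 and Vegfa from -0.12 to 0.083. At 8 h against 0 h, where no test was made, Hif1a ran from -0.13 to 0.050, Epas1 from -0.091 to 0.11, Arnt from -0.00010 to 0.075, Hif1an from -0.013 to 0.074 and Egln1 from -0.017 to 0.023. Egln3 had 14 to 61 reads per library, and whether depth set the width of its intervals was not tested.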
